A study of Drosophila melanogaster with 54 samples.

Results

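The 9 genes described here act in making, secreting and modifying chitin in the fruit fly Drosophila melanogaster: mmy, kkv, knk, serp, verm, Cda4, Cda5, obst-A and Gasp. They were named by symbol from their known roles and not by a measured value, though earlier results of these data were known at that time. They were found by their gene identifiers among the 17481 genes of the count tables. All 9 were present, and all 9 passed the filter on low counts. RNA was sequenced from 54 whole single embryos, and the only groups are developmental stages, with 5 embryos in each of stages 4, 6, 8 and 12, 9 in each of stages 5 and 10, and 8 in each of stages 13 and 15. The labels give no strain, genotype, treatment, sex, age in hours or parentage, and nothing states that embryos of a stage came from separate parents, so each p-value refers to the spread among these embryos, which may be in part technical.

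Chitin is a polymer of N-acetylglucosamine that insects lay down outside epithelial cells, in the cuticle of the epidermis and in a transient cable inside the growing tracheal tubes. Its precursor, UDP-N-acetylglucosamine, is made in the cytoplasm, and a chitin synthase in the apical membrane joins the sugar units and extrudes the chain. Secreted and membrane-bound proteins then order the fibres, deacetylases remove acetyl groups, and chitin-binding proteins stabilise the matrix.

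Reads in genes ranged from 1632448 to 12863155 per embryo, with a median of 4713817. Levels are given as CPM, counts scaled to the reads in genes of each library after adjustment by trimmed means (TMM). In 46 libraries reads kept their strand, and in 8 they did not. The stranded count columns place the strandless libraries, called non-directional below, in stages 13 and 15, where they hold the letters A, B, F and G at each stage. Counts made without regard to strand were therefore the main values, and within-type values are given where they change a result. Each value is from a whole embryo, so fewer cells of a type and less RNA per cell cannot be told apart.

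The 9 genes showed 3 time courses. The precursor gene mmy was abundant at stage 4, fell by stage 5 and rose again at each later step but the one to stage 8. Cda5 and kkv were present from stage 5 on, and kkv then increased steeply at stage 13. The other 6 genes, knk, serp, verm, Cda4, obst-A and Gasp, stayed at 6.64 CPM or less in every embryo up to stage 12 and reached 11.3 CPM or more in every embryo of stage 15. At the step from stage 12 to stage 13, 8 of the 9 genes were called higher and 0 lower at an adjusted p under 0.05 (edgeR quasi-likelihood test, Benjamini-Hochberg over 9783 genes), where 31% of all genes tested were called higher and 25% lower. From stage 13 to stage 15, 9 of 9 were called higher, against 28.8% of all genes higher and 27.1% lower. The median log2 change of the 9 was 4.20 and 1.15 at these steps, against 0.04 and -0.01 over all genes. In the 8 genes called from stage 12 to 13 the embryos of the stages did not overlap, against 22.4% of all genes tested with every embryo of stage 13 above every embryo of stage 12. From stage 13 to 15 they did not overlap in 4 of 9, against 17.1% of all genes.

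**Figure D1:**
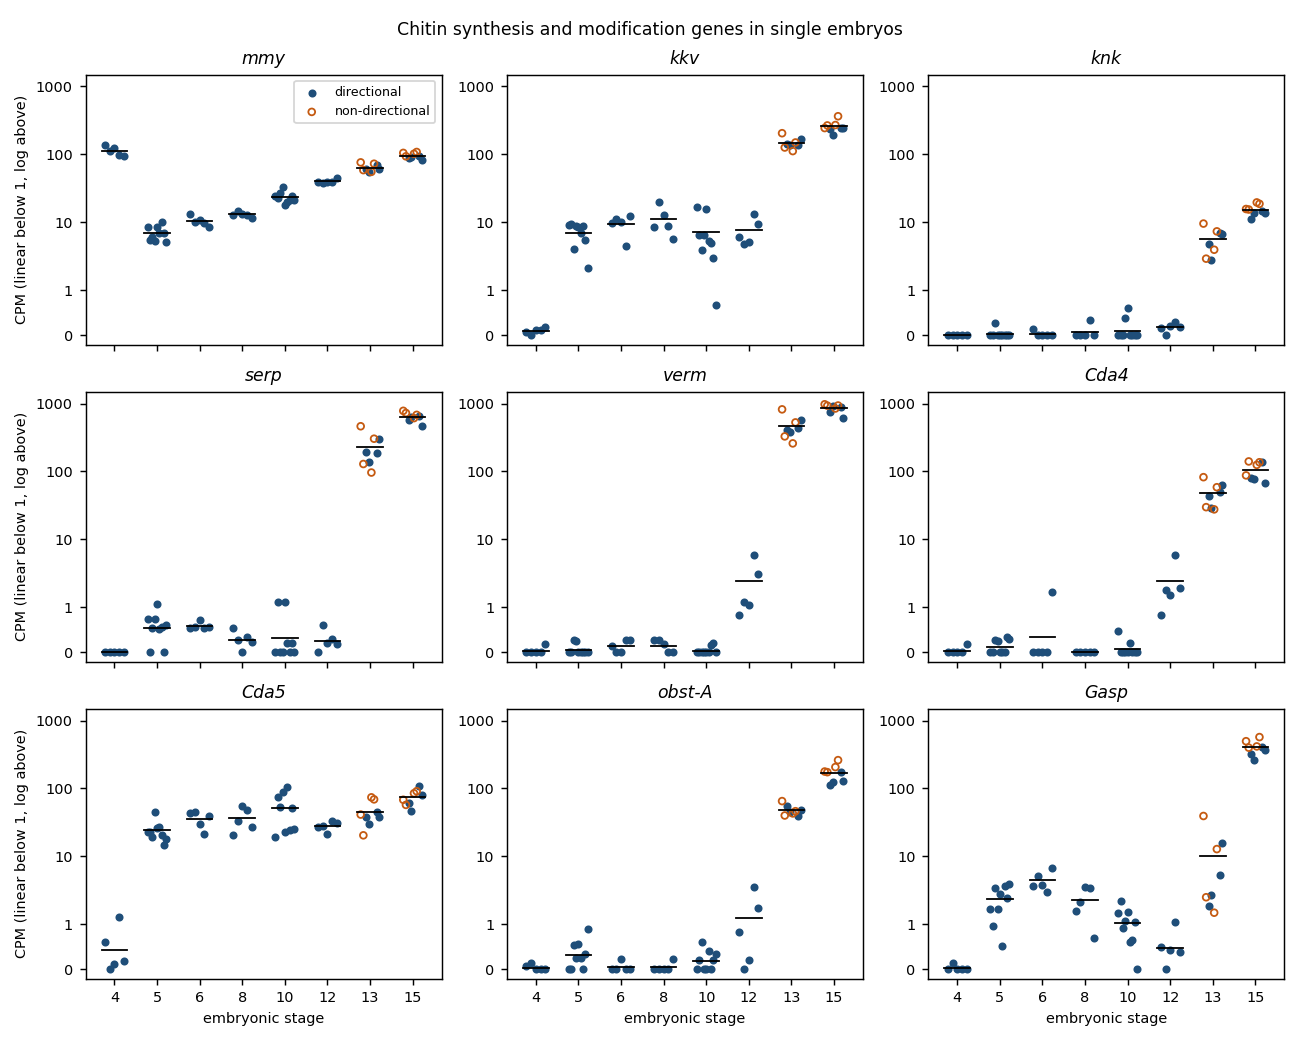
Level of each gene in every embryo, in CPM (linear below 1, log above), by stage; each point is 1 embryo, filled for directional and open for non-directional libraries, and the line is the stage mean. The embryos of stages 13 and 15 lie above those of stage 12 in every panel except that of Cda5, and only mmy is abundant at stage 4.

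Earlier steps differed. From stage 4 to stage 5, 5 genes were called higher and 1 lower (52.1% and 30.6% of all genes). From stage 5 to 6 only mmy was called, higher (28% of all genes higher and 21.5% lower). From stage 6 to 8 the count was 0 of 9 by edgeR, against 9.8% of all genes higher and 8.65% lower, with 1 gene, mmy, at an unadjusted p under 0.05 and 0 called by DESeq2. From stage 8 to 10 again only mmy was called, higher (25.6% of all genes higher and 24.9% lower). From stage 10 to 12 verm, Cda4, obst-A and mmy were called higher (24.5%) and Cda5 lower (23.4%). From stage 12 to stage 15 all 9 were called higher (40.4% of all genes higher and 35.3% lower), with a median log2 change of 6.07 against 0.05 over all genes. At the step to stage 5 the median of all genes itself moved by 0.72, so changes there stand relative to that shift.

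The gene mmy (mummy, FBgn0259749, chromosome 2L, 6468538 to 6473904 in the BDGP6.54 annotation that gives all positions here, minus strand) encodes the pyrophosphorylase that makes UDP-N-acetylglucosamine, the substrate of chitin synthase and also of protein glycosylation. It was the only one of the 9 with abundant RNA at stage 4, at 136, 113, 126, 99.5 and 93.8 CPM in the 5 embryos. At stage 5 it ranged from 5.07 to 10.03 with a median of 6.86, so the stages lay far apart, and the log2 change was -4.01 ± 0.12 (SE; adjusted p = 2.66e-34, edgeR). It then climbed through 10.4 ± 1.64 CPM in stage 6 (SD, n = 5), 13.1 ± 1.22 in stage 8 (n = 5) and 23.6 ± 4.54 in stage 10 (n = 9) to 39.9 ± 2.79 in stage 12 (n = 5). The level at stage 15, 95.6 ± 9.12 CPM (n = 8), overlapped that at stage 4, 113 ± 17.5. Between stages 12 and 13 mmy rose by 0.67 ± 0.12 on the log2 scale (adjusted p = 2.51e-06, edgeR), from 37.6 to 44.8 CPM in the 5 embryos to 55.3 to 76.3 CPM in the 8. Between stages 13 and 15 it rose by a further 0.59 ± 0.10 (adjusted p = 1.00e-06, edgeR).

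The gene kkv (krotzkopf verkehrt, FBgn0001311, 3R, 5378093 to 5392866, minus strand) encodes the chitin synthase of epidermis and trachea. At stage 4 it had 4 reads in all, in 4 of 5 embryos, and at stage 5 it had 241 reads and 6.998 ± 2.59 CPM (n = 9), a log2 change of 5.97 ± 0.65 (adjusted p = 4.52e-12, edgeR). It stayed near that level for a long time, with means of 9.51 ± 2.93 CPM in stage 6, 11.1 ± 5.46 in stage 8, 7.07 ± 5.57 in stage 10 and 7.72 ± 3.51 in stage 12. Single embryos of stage 10 were uneven, from 0.674 CPM in embryo J through a median of 5.39 to 16.8 CPM in embryo B.

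At stage 12 the 5 embryos had 6.13, 4.78, 5.19, 13.1 and 9.42 CPM of kkv. At stage 13 the lowest, median and highest were 111.8, 139.6 and 205 CPM. No embryo of stage 13 came near stage 12, and the rise was 18.0-fold, a log2 change of 4.17 ± 0.33 (adjusted p = 1.18e-15, edgeR). At stage 15 kkv stood at 191, 244.6 and 365 CPM, overlapping stage 13, with a log2 change of 0.81 ± 0.22 (adjusted p = 0.00129, edgeR). Within the 4 directional libraries of each stage this step was 0.63 ± 0.33 and missed the threshold (adjusted p = 0.132, edgeR), and within the 4 non-directional ones it was 0.93 ± 0.19 (adjusted p = 0.00388, edgeR). That difference between library types was not tested.

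The gene knk (knickkopf, FBgn0001321, 3R, 10122365 to 10125664, minus strand) encodes a membrane-anchored protein that organises chitin and shields it from chitinases. In the annotation 64.0% of its exon bases, 1712 in number, also lie in an exon of the antisense RNA gene asRNA:CR46038 on the opposite strand. Reads in that stretch belong to more than 1 gene when strand is ignored, and the unstranded counts leave them out. In the directional libraries knk had 496 reads without strand and 2059 reads on its own strand, 4.15 times as many. The antisense gene had at most 4 reads on its own strand in any stage.

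With strand ignored, knk had 0.166, 0, 0.216, 0.304 and 0.192 CPM in the stage 12 embryos, a total of 5 reads. At stage 13 its lowest, median and highest levels were 2.79, 5.71 and 9.57 CPM, and at stage 15 they were 11.3, 15.1 and 19.6 CPM, with no overlap at either step. The log2 changes were 4.63 ± 0.47 (adjusted p = 1.02e-11) and 1.44 ± 0.24 (adjusted p = 1.29e-06, both edgeR). On its own strand knk reached 22.1 ± 4.76 CPM at stage 13 and 54.6 ± 6.30 at stage 15 (n = 4 each), where the same libraries counted without strand gave 5.31 and 13.3. The sense counts gave log2 changes of 5.55 ± 0.40 and 1.31 ± 0.28 (adjusted p = 2.03e-15 and 0.000209, edgeR). The direction of knk thus held on both counts, while its unstranded level was far below that on its own strand.

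**Figure D2:**
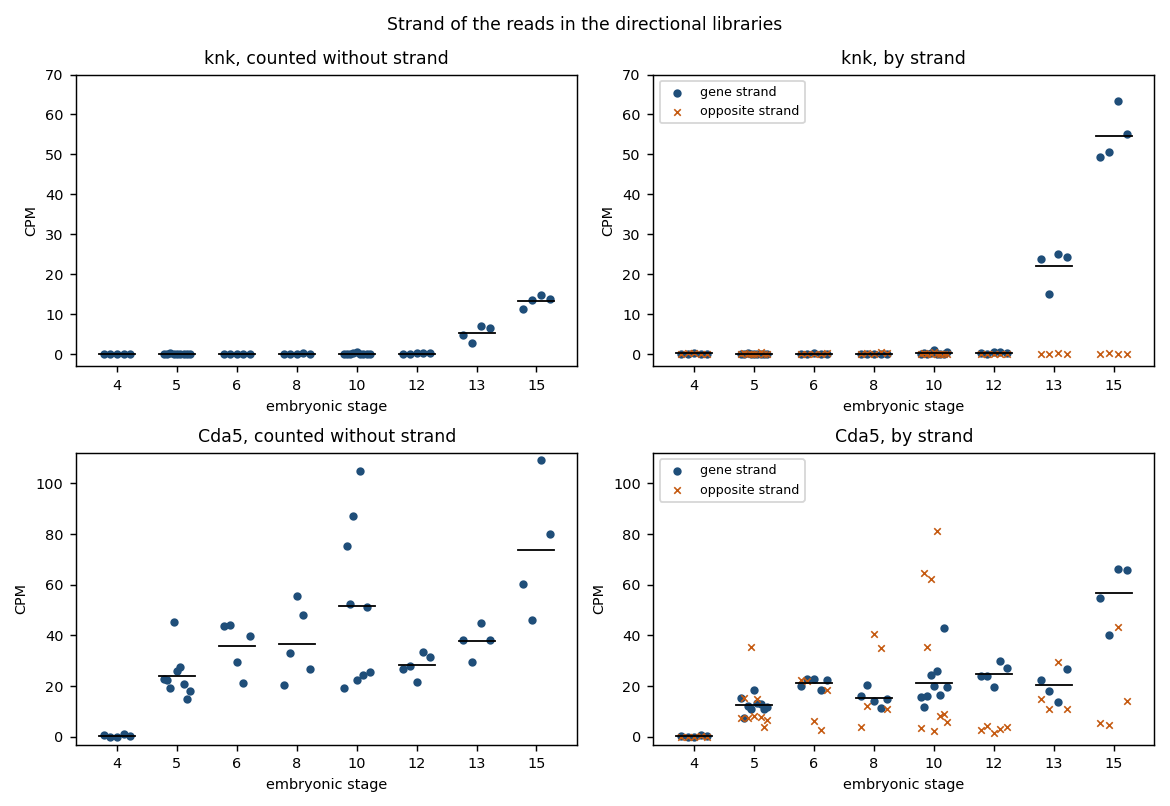
Levels of knk and Cda5 in the directional libraries, in CPM on a linear axis, counted without strand (left) and on each strand (right); points are embryos and lines are means of the plotted counts without strand or on the gene's strand. Nearly all stranded reads of knk are on its own strand, 4.15 times as many as without strand, while reads on the strand opposite to Cda5 vary from 2.38 to 81.1 CPM at stage 10.

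The genes serp (serpentine, FBgn0260653, 3L, 19700977 to 19708015) and verm (vermiform, FBgn0261341, 3L, 19690033 to 19695260) are neighbours on the minus strand. They encode secreted chitin deacetylases that act in the lumen of the trachea, where they are known to limit tube length. At stage 12 serp had 0, 0.597, 0.216, 0.304 and 0.192 CPM, 5 reads in all. At stage 13 it had 96.2 CPM in the lowest embryo, F, a median of 190.3 and 462 in the highest, embryo A. This was the largest log2 change of the 9783 genes tested at this step, 9.93 ± 0.48 (adjusted p = 2.48e-22, edgeR), and with 5 reads behind the earlier level its size is imprecise.

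The gene verm was already called higher from stage 10 to 12. At stage 10 verm had 2 reads in 9 embryos, and at stage 12 it had 0.829, 1.19, 1.08, 5.78 and 3.08 CPM, 66 reads in all, so that every embryo of stage 12 exceeded every embryo of stage 10. The ratio of reads per library size was 50.9, with an exact 95% interval of 13.5 to 429 that covers counting error only. The edgeR log2 change with all embryos was 5.13 ± 0.73 (adjusted p = 5.33e-08). At the same step serp went from 12 to 5 reads and was not called, with a log2 change of -0.58 ± 1.15, and the difference between the genes at this step was not tested. At stage 13 verm ranged from 259 to 819.9 CPM around a median of 420, a log2 change of 7.43 ± 0.28 and the smallest p of all genes at this step (adjusted p = 2.68e-27, edgeR). Without embryo G of stage 12, the highest there, the log2 changes of verm were 4.39 from stage 10 to 12 and 8.17 from stage 12 to 13.

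From stage 13 to stage 15, serp rose by 1.498 ± 0.19 on the log2 scale (adjusted p = 3.79e-09, edgeR) to 461, 645 and 780.1 CPM as its lowest, median and highest values. The gene verm rose by 0.88 ± 0.15 (adjusted p = 1.76e-06, edgeR) to 612, 897 and 974 CPM. For each gene the stages overlapped through embryo A of stage 13. Its serp level of 462.4 CPM was just above that of embryo I of stage 15 alone, at 460.6. Its verm level of 819.9 CPM was above those of embryos I and C of stage 15, at 612 and 756 CPM. Embryo I of stage 15 was the lowest of its stage for both. Whether reads of shared sequence between these related genes were lost in counting was not tested.

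Cda4 and Cda5 are further members of the chitin deacetylase family. Cda4 (FBgn0052499, X, 22583634 to 22632710, minus strand) was, like verm, called higher at each of the last 3 steps. It had 3 reads over 9 embryos at stage 10 and 0.829, 1.79, 1.51, 5.93 and 1.92 CPM at stage 12, 64 reads in all, a ratio of 32.9 with an exact 95% interval of 10.8 to 164 (adjusted p = 2.05e-06, edgeR). It rose to 27.6, 46.4 and 82.3 CPM as the lowest, median and highest of stage 13, a log2 change of 4.20 ± 0.37 (adjusted p = 1.08e-13, edgeR). At stage 15 the values were 66.9, 106 and 140.2 CPM, overlapping stage 13, with a log2 change of 1.15 ± 0.23 (adjusted p = 2.50e-05, edgeR). The edgeR log2 change of Cda4 from stage 10 to 12 was 4.64 ± 0.77 with all embryos. Without embryo G of stage 12 it was 3.81, and without embryo B of stage 10 it was 5.59. The step of Cda4 to stage 13 was 5.03 without embryo G of stage 12. Cda4 and obst-A lie on the X chromosome, and the sex of the embryos is not in the labels.

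Cda5 (FBgn0051973, 2L, 25402 to 65404, minus strand) was the only one of the 9 genes not called from stage 12 to 13. Counted without strand, it had 24.2 ± 8.87 CPM in stage 5 and 51.4 ± 31.5 in stage 10, then 28.2 ± 4.55 in stage 12, 44.4 ± 18.4 in stage 13 and 74.6 ± 20.5 in stage 15. It was called lower from stage 10 to 12, with a log2 change of -0.86 ± 0.33 (adjusted p = 0.0260, edgeR). From stage 12 to 13 its change was 0.65 ± 0.33 (adjusted p = 0.0879, edgeR), and it was called higher from stage 13 to 15, at 0.75 ± 0.27 (adjusted p = 0.0173, edgeR). Within the 4 non-directional libraries a stage, where 28.5% of all genes were called higher and 25.6% lower and 8 of the 9 genes higher, this last Cda5 step was 0.53 ± 0.35 (adjusted p = 0.224), and without embryo H of stage 15 it was 0.63 (adjusted p = 0.0540, edgeR). The fall at the step to stage 12 missed the threshold without embryo E or G of stage 10, or B or D of stage 12, with adjusted p up to 0.0900.

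Strand separated these values into parts. In the directional libraries 58.5% of the Cda5 reads, 4736, were on its own strand and 3365 were opposite, where each of the other 8 genes had 98.7% or more on its own strand. The long noncoding gene lncRNA:CR46254 lies opposite to Cda5 at 54817 to 55767 on 2L and shares 0 exon bases with it, and what the opposite reads within Cda5 exons are was not tested. At stage 10 opposite reads ran from 2.38 to 81.1 CPM between embryos and at stage 12 from 1.70 to 4.17. On its own strand Cda5 stood at 21.4 ± 9.16 CPM in stage 10 (n = 9), 24.9 ± 3.91 in stage 12 (n = 5), 20.4 ± 5.70 in stage 13 (n = 4) and 56.7 ± 12.2 in stage 15 (n = 4). With sense counts the step to stage 12 was 0.22 ± 0.22, opposite in sign and not called (adjusted p = 0.400). The step from stage 12 to 13 was -0.29 ± 0.26 (adjusted p = 0.351), and the step to stage 15 was 1.47 ± 0.26 (adjusted p = 1.40e-05, edgeR). In sense counts Cda5 also rose from stage 5 to 6 by 0.75 ± 0.22 (adjusted p = 0.00380, edgeR).

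The genes obst-A (FBgn0031097, X, 20239855 to 20243209, plus strand) and Gasp (FBgn0026077, 3R, 6088799 to 6100887, minus strand) encode secreted proteins with chitin-binding domains, and Obst-A and Gasp are known in larval cuticle and in the tracheal lumen. At stage 12 obst-A had 0.829, 0, 0.216, 3.50 and 1.73 CPM, 38 reads, after 7 reads in 9 embryos of stage 10, a log2 change of 2.87 ± 0.60 (adjusted p = 7.89e-05, edgeR). At stage 13 its lowest, median and highest values were 38.9, 45.6 and 65.1 CPM, and at stage 15 they were 111, 173 and 261 CPM, with no overlap at either step. The log2 changes were 4.94 ± 0.31 (adjusted p = 5.44e-19) and 1.83 ± 0.18 (adjusted p = 9.27e-13, both edgeR). Without embryo G of stage 12, the steps to stages 12 and 13 were 2.03 and 5.78. Of the 7 reads at stage 10, 4 were on the opposite strand, and sense counts gave 3.79 for the step to stage 12.

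Gasp stood low until stage 13, and of the steps after stage 5 it had its largest change at the last. It had 2.34 ± 1.20 CPM in stage 5, 4.43 ± 1.46 in stage 6, 2.27 ± 1.20 in stage 8 and 1.06 ± 0.63 in stage 10, and at stage 12 its 5 embryos held 14 reads, or 0.497, 0, 0.433, 1.06 and 0.385 CPM. Of the stage 12 reads by strand, 3 were on its own strand and 11 opposite, and sense counts gave a log2 change of -2.64 ± 1.01 from stage 10 to 12 (adjusted p = 0.0260, edgeR) where counts without strand gave no call. At stage 13 the 8 embryos had 39.3, 2.496, 1.82, 2.66, 1.48, 12.8, 5.34 and 15.5 CPM, a 26.6-fold spread, where the other 8 genes spread 4.80-fold or less. The log2 change from stage 12 was 4.10 ± 0.70 (adjusted p = 1.80e-06, edgeR), 3.34 without embryo A of stage 13 and 5.34 in sense counts.

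At stage 15 Gasp ranged from 262 to 570.5 CPM around a median of 405, with no overlap. The log2 change from stage 13 was 5.30 ± 0.36 (adjusted p = 7.02e-18, edgeR), or 6.04 without embryo A of stage 13. It was the largest change of the 9 genes at this step. Between stage 4 and stage 5 Gasp had gone from 1 read to 77, a ratio of 102 with an exact 95% interval of 17.8 to 4080.3. At that early step serp went from 0 reads to 19, at least 8.39-fold higher against a floor of 3 reads over stage 4, and obst-A from 2 reads to 10, a ratio of 6.62 with an interval of 1.41 to 62.2. The edgeR estimate for obst-A at this step was 4.71-fold (adjusted p = 0.0288). Of its 10 reads at stage 5, 6 were on the opposite strand, and sense counts gave 2.21-fold with no call (adjusted p = 0.309, edgeR). The obst-A call was also lost without embryo D or G of stage 4 or embryo D, F or J of stage 5, with adjusted p up to 0.0799 (edgeR).

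**Figure D3:**
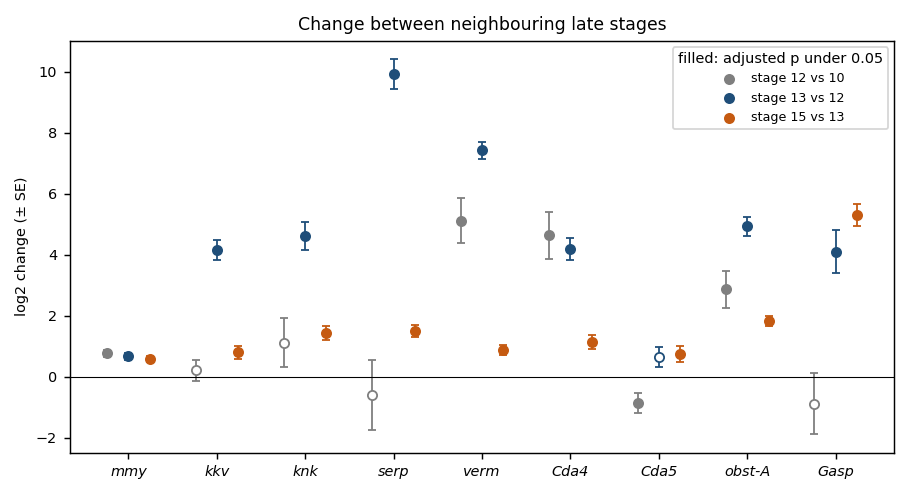
Log2 change of each gene at the steps from stage 10 to 12, 12 to 13 and 13 to 15, with SE bars; filled points passed an adjusted p of 0.05. Of these steps the one to stage 13 is the largest for kkv, knk, serp, verm and obst-A. For Gasp it is the one to stage 15, at 5.30, and mmy changes by 0.59 to 0.77 at each.

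Levels of different genes were compared per kilobase of exon. At stage 15 the order without strand was verm with 361 ± 50.3 CPM per kb, serp with 251 ± 38.6, Gasp with 172 ± 40.7, obst-A with 89.1 ± 25.6, Cda4 with 54.9 ± 15.97, kkv with 45.3 ± 8.65, mmy with 43.5 ± 4.16, Cda5 with 6.91 ± 1.90 and knk with 5.74 ± 1.02 (SD, n = 8). Of the neighbours in that order only mmy and Cda5 had ranges that did not overlap. At stage 13, again without strand, verm with 196 ± 73.9 and serp with 89.0 ± 48.1 led. Then mmy, kkv, obst-A and Cda4 followed at 24.7 to 29.0 with overlapping ranges, and Gasp, Cda5 and knk lay at 2.10 to 4.32 CPM per kb. On the sense strand at that stage knk had 8.27 ± 1.78 (n = 4), above Cda5 with 1.89 ± 0.53 and with no overlap. Its range there overlapped that of Gasp, with 2.48 ± 2.65. At stage 12 the order was led by mmy with 18.2 ± 1.27, apart from all others, which were at 2.62 or less. On the sense strand at stage 15 knk had 20.4 ± 2.36 CPM per kb (n = 4), above Cda5 with 5.25 ± 1.13 and with no overlap, and below kkv with 39.9 ± 4.88. With the longest transcript as length, Cda5 had 10.3 and Gasp 241 CPM per kb at stage 15.

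Ratios of reads within an embryo show whether a pair of genes changed unequally, with no scaling between libraries. They were tested with exact two-sided permutation tests over embryos, with p adjusted over the 10 tests made. For 8 against 8 embryos the smallest raw p is 0.000155, and for 8 against 5 it is 0.000777. The ratio of serp to verm reads had a median of 0.454 at stage 13 and of 0.752 at stage 15. Its range of 0.363 to 0.576 at stage 13 did not touch the range of 0.686 to 0.801 at stage 15, and the mean log2 ratio rose by 0.71 (adjusted p = 0.000777, exact permutation). From stage 12 to 13 it rose by 1.56 (adjusted p = 0.0181, exact permutation), on 5 serp reads at stage 12, and by 0.15 with 5 in place of 0.5 added to each count (adjusted p = 0.693, exact permutation).

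The ratio of the chitin-binding pair moved one way and then the other, while both genes rose. The median ratio of obst-A to Gasp reads was 11.6 at stage 13, where it ran from 1.66 to 30.5, and 0.427 at stage 15, where it ran from 0.344 to 0.496. The mean log2 ratio fell by 4.36 (adjusted p = 0.000777, exact permutation), and obst-A reads exceeded Gasp reads in 8 of 8 embryos of stage 13 and in 0 of 8 of stage 15. From stage 12 to 13 the ratio had risen by 2.39 (adjusted p = 0.0278, exact permutation), a call that was lost without embryo B, C or D of stage 12 (adjusted p of 0.0519 to 0.0657, exact permutation). It was also lost in sense counts of the directional libraries, at 1.37, and in those libraries counted without strand.

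For the synthase and its precursor enzyme, the log2 ratio of mmy to kkv reads fell by 3.65 from stage 12 to 13 (adjusted p = 0.00155, exact permutation), with 8 of 8 embryos below all 5. From stage 13 to 15 the change was -0.22 (adjusted p = 0.0542, exact permutation). The ratio of Cda5 to Cda4 fell by 3.88 from stage 12 to 13 (adjusted p = 0.00155, exact permutation) and changed by -0.39 from stage 13 to 15 (adjusted p = 0.259), where sense counts gave 0.51. The ratio of knk to kkv changed by -0.20 from stage 12 to 13 (adjusted p = 0.469, exact permutation), on 5 knk reads at stage 12, and by -1.93 with 5 added to each count (adjusted p = 0.00155, exact permutation). It rose by 0.73 from stage 13 to 15 (adjusted p = 0.00155, exact permutation). On sense counts the change from stage 12 to 13 was 1.16 (adjusted p = 0.0476, exact permutation, 4 against 5 embryos), opposite in sign.

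**Figure D4:**
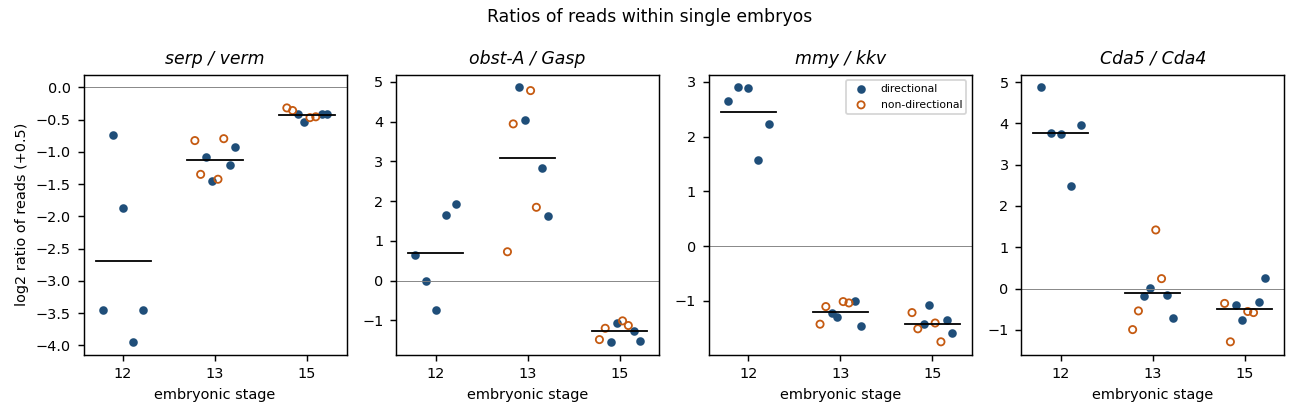
Log2 ratio of reads, with 0.5 added to each count, of serp to verm, obst-A to Gasp, mmy to kkv and Cda5 to Cda4 in single embryos of stages 12, 13 and 15; lines are stage means, filled points directional and open points non-directional libraries. The serp to verm ratio narrows to between -0.54 and -0.32 at stage 15, and the obst-A to Gasp ratio changes sign between stages 13 and 15.

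Within stage 13 the genes tended to be high or low in the same embryos. Embryo A was the highest of 8 for 8 of the 9 genes, Cda5 being the exception, and embryo F was the lowest for 6. Over all genes tested, embryo A was the highest in 22.7% and embryo F the lowest in 15.5%. Among the 2818 genes called higher at stage 15 than at stage 13, embryo A was the highest in 54.1% and embryo F the lowest in 23.6%. Both are non-directional libraries, as were 4 of the 8 at this stage, and the part of library type in this was not tested. At stage 12 embryo G was the highest of 5 for 7 of the 9 genes, against 25.04% of all genes tested. At stage 15 embryo G was the highest for 4 genes and embryo I the lowest for 4, against 13.8% and 13.9% of all genes. Among the 2818 genes called higher at stage 15 than at stage 13, these shares were 29.2% and 11.1%. These embryo letters carry no label beyond the name.

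**Figure D5:**
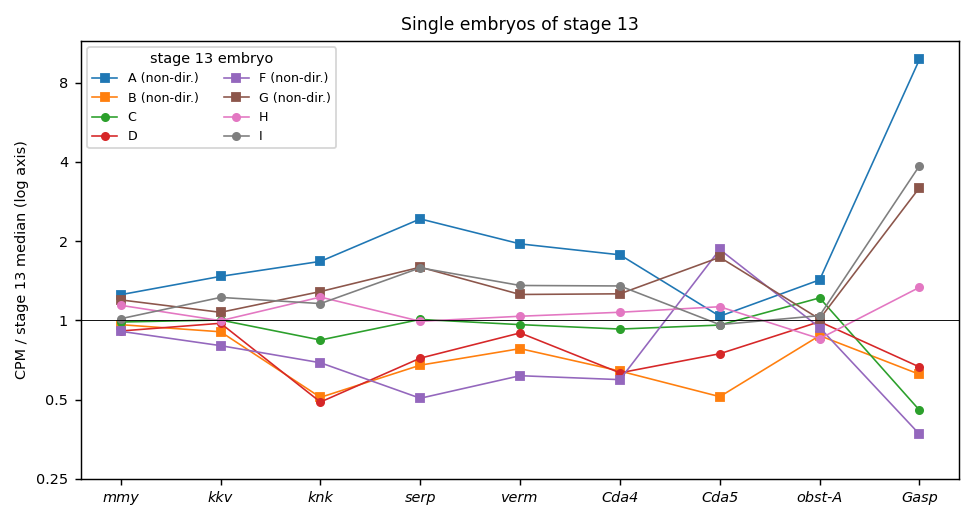
Level of each gene in the 8 embryos of stage 13, divided by the stage 13 median of that gene, on a log axis; each line is 1 embryo, squares are non-directional libraries. Embryo A is the highest for 8 of the 9 genes, and Gasp spreads most, from 1.48 to 39.3 CPM.

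Other genes of the pathway were followed as lists. Of 5 genes that lead to UDP-N-acetylglucosamine besides mmy, 3 were called higher and 0 lower from stage 12 to 13, and 2 higher and 0 lower from stage 13 to 15. At these steps 31% and 28.8% of all genes tested were called higher, and 25% and 27.1% lower. Gnpnat, the glucosamine-phosphate N-acetyltransferase, rose from 26.6 ± 5.68 to 101 ± 9.47 CPM at stage 13, a log2 change of 1.94 ± 0.11 (adjusted p = 4.97e-20, edgeR), and then stood at 109 ± 7.85 at stage 15 (log2 change 0.11 ± 0.09). The hexokinase gene Hex-A rose by 2.06 ± 0.32 at the step to stage 13. Gfat2, which makes glucosamine 6-phosphate, rose by 0.53 ± 0.08 there, and nst, the phosphoacetylglucosamine mutase, rose by 0.80 ± 0.07 only at the step to stage 15 among the last 2 steps. At the step to stage 12, 3 of these genes had been called higher and 2 lower (24.5% and 23.4% of all genes). The lower ones were led by Pgi, the phosphoglucose isomerase gene, at -0.87 ± 0.12.

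All 4 genes listed beside the synthase were called higher from stage 12 to 13, against 31% of all genes tested. The genes reb and exp encode related proteins that chitin deposition by Kkv needs. From stage 12 to 13 reb went from 1 read to 332, a ratio of 162 with an exact 95% interval of 28.9 to 6420.1, and it then rose by 1.59 ± 0.21 to 20.1 ± 3.13 CPM at stage 15. The gene exp rose by 1.76 ± 0.37 and 1.62 ± 0.28 at these steps, to 91.4 ± 17.2 CPM, with 72.4% of its directional reads on its own strand. The second chitin synthase gene, Chs2, which acts in the gut in insects, took another course. It rose by 2.31 ± 0.35 from stage 10 to 12 and by 1.00 ± 0.34 to stage 13, then fell by 0.65 ± 0.28 (adjusted p = 0.0495, edgeR), with 41.1 ± 15.3, 81.7 ± 14.1 and 52.3 ± 17.6 CPM at stages 12, 13 and 15. The gene rtv, which acts in chitin organisation, rose by 0.94 ± 0.22 to stage 13 and had 14.9 ± 2.56 and 13.0 ± 2.34 CPM at stages 13 and 15.

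Genes that break chitin down were also called higher. Of 13 chitinase and hexosaminidase genes 10 were tested, of which 7 were called higher and 0 lower from stage 12 to 13, and 5 higher and 1 lower from stage 13 to 15. Over all genes tested, 31% and 28.8% were called higher at these steps, and 25% and 27.1% lower. Cht7 rose from 0.905 ± 0.368 to 54.9 ± 7.39 CPM at stage 13 (log2 change 6.00 ± 0.28), Cht5 from 0.571 ± 0.374 to 25.1 ± 17.3 (5.39 ± 0.48), and Cht10 by 2.89 ± 0.41. Of 5 imaginal disc growth factor genes tested, relatives of chitinases that lack the activity, 3 were called higher and 0 lower at each of the last 2 steps. Of 9 further chitin-binding genes only obst-B and Peritrophin-A passed the filter. The gene obst-B went from 2 reads at stage 12 to 514 at stage 13, a ratio of 125 with an exact 95% interval of 34.6 to 1039, and rose by 3.12 ± 0.26 to 89.5 ± 18.7 CPM at stage 15. Peritrophin-A rose by 1.59 ± 0.35 and 1.99 ± 0.25. Of the other chitin deacetylase names listed, Cda9 did not pass the filter. Cda3, Cda6, Cda7 and Cda8 matched no counted gene by symbol or synonym and so were not analysed.

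Genes of the apical matrix and its delivery were counted in the same way. Of 10 zona pellucida protein genes, whose products link matrix and membrane, 8 were called higher and 0 lower at each of the steps to stages 12, 13 and 15. Among them nyo rose by 4.54 ± 0.34 to stage 12, and mey by 2.71 ± 0.32 to stage 13 and by 4.28 ± 0.23 to stage 15. The gene dyl, with 3 reads at stage 12, rose from 1.48 ± 0.746 to 96.7 ± 55.4 CPM between stages 13 and 15 (log2 change 6.01 ± 0.30). Of 7 secretory pathway genes, 6 were called higher to stage 12, 7 to stage 13 and 0 to stage 15, and no gene was lower, with Sar1, the GTPase that starts COPII coats, at 1.28 ± 0.13, 0.50 ± 0.14 and no call. Of 13 septate junction genes, needed for the secretion of Serp and Verm, 11, 9 and 4 were called higher and 0 lower. The scaffold gene vari rose from 9.61 ± 5.49 to 334 ± 68.1 CPM at stage 13 (log2 change 5.10 ± 0.29). The counts of these lists stand against 24.5%, 31% and 28.8% of all genes called higher, and 23.4%, 25% and 27.1% lower, at the steps to stages 12, 13 and 15.

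Of 8 transcription factor genes of trachea and epidermis, 7 were called higher and 1 lower to stage 12, 2 higher and 0 lower to stage 13, and 1 higher and 4 lower to stage 15. Over all genes, 24.5%, 31% and 28.8% were called higher and 23.4%, 25% and 27.1% lower at these steps. Blimp-1, a transcriptional repressor, rose by 2.32 ± 0.27 and 3.48 ± 0.28 to 445 ± 44.3 CPM at stage 13, and fell by 1.81 ± 0.21 to 127 ± 65.2 CPM at stage 15. Markers of tissues moved in several directions beside the 9 genes, and their part in the results was not tested. Of the tracheal markers at the step to stage 13, trh was at -0.02 ± 0.19, btl fell by 0.99 ± 0.18 and uif rose by 0.61 ± 0.14. The epidermal gene sha rose by 4.26 ± 0.49 and ovo by 0.39 ± 0.16. From stage 13 to 15 the muscle gene Mhc rose by 7.38 ± 0.45, Act57B by 1.27 ± 0.21, the synaptic gene nSyb by 3.65 ± 0.30 and the gut gene GATAe by 0.79 ± 0.15, while elav fell by 0.46 ± 0.14 and srp by 0.25 ± 0.10.

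Similarity of pattern was described by Pearson's r of log2 CPM across the 54 embryos, which share stage and library type and so are not independent points. Among the 9 genes verm and Cda4 were the most alike, with r of 0.988, and verm and obst-A had 0.982. Gasp reached 0.845 with knk at most, Cda5 0.695 with kkv, and mmy 0.661 with verm. All r rest on counts without strand. In the directional libraries only 58.5% of the Cda5 reads were on its own strand, so its r values include opposite reads. Values of r on sense counts were not computed. The gene mmy was most like the chaperonin subunit gene CCT7, with 0.987, MetRS, a tRNA synthetase gene, with 0.978, and Trx2 with 0.978. Of genes outside the 9, serp was closest to CG7896, CG9184 and CG7675, with 0.984 to 0.988. The gene verm was closest to FBgn0051235, with 0.993, to Qsox2 and to CG42673, and Cda4 to Qsox2, with 0.985, Ets65A and CG7296. The closest to knk were CG4328, CG7675 and Aplip1, with 0.986 to 0.988, and to obst-A CG9338, CG17211 and bero, with 0.984 to 0.987. For kkv they were Cep290, CG4213 and Cad96Ca, with 0.953 to 0.963, for Gasp Prm, stj and Jhbp2, with 0.946 to 0.951, and for Cda5 TP53INP, Zasp52 and uif, with 0.944 to 0.946.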

How the data were processed

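The authors deposited whole-number counts of reads per gene for each embryo, with a column for reads counted without strand and a column for each strand. STAR 2.5.3a and genome build dm6 are named in the submitters' processing notes, and the gene annotation used for counting is not stated there. Per the labels' protocols ribosomal RNA was depleted, and spike-in RNA was added, which was not used here. Reads in no gene (0.298 to 10.6%) or in several genes (4.17 to 5.64% of reads in 1 gene, several or none) stayed out of library sizes. Symbols, positions and exon lengths came from annotation release 115 of BDGP6.54, which matched 17343 of 17481 identifiers; the check of 101 listed symbols matched 96.

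All embryos entered an edgeR 4.0.16 quasi-likelihood fit (R 4.3.3) of the unstranded counts (stage means, TMM scaling), after edgeR's default filter on low counts kept 9783 genes. The test was checked on simulated counts. Common biological variation was 0.191. Log2 changes carry SE and levels SD over embryos. Each SE was derived as the absolute log2 change divided by the square root of the F statistic of its test. It was not fitted directly and is rough where a stage has few reads. Read ratios within embryos, with 0.5 added to each count, were tested by exact permutation over embryos. Intervals and floors cover counting error only. Among 168 pairs of embryos of the same stage, counts differed with a chi-square of at least 3.93 per degree of freedom. That check can only find a library sequenced again, not libraries made from the same embryo. Each embryo was counted as its own sample. Alternatives were size factors and a test from DESeq2 1.42.0, no filter, a replicate block, library type as a term or its types apart, sense counts and each embryo left out. Besides the 9 members, up to 3 called genes per list with the largest change and the 3 genes of most similar pattern were named. The members and the lists were chosen with earlier results of these data known.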

Additional observations from a re-analysis of the deposited data

Results flagged for a closer look

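Single embryos were checked in the 41 combinations of gene and stage with a mean of at least 1 CPM and 4 to 10 embryos, and 5 stood apart from the rest of their stage by the gap to the nearest value relative to the range. Chance gives about 1 in 20 such groups. For mmy at stage 12, embryo H had 44.8 CPM where the next had 39.2. For kkv at stage 15, embryo G had 364.5 CPM where the next had 270.7, and for Cda4 at stage 12, embryo G had 5.93 where the next had 1.92. For Cda5 at stage 5, embryo E had 45.5 CPM where the next had 27.4, and for Gasp at stage 13, embryo A had 39.3 where the next had 15.5. In embryo E of stage 5 reads opposite to Cda5 stood at 35.5 CPM, the highest of the 9, and its sense level lay within the range of the others.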

How the results depend on the processing

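Counts of the 9 genes called were within 1.5 times of the value given under every alternative except at the steps to stages 6 and 10, where 1 gene was called. The count from stage 5 to 6 was 2 with the title letter as a replicate block and 2 with sense counts, and 1 to 2 with each embryo left out. The count from stage 8 to 10 was 1 to 2 with each embryo left out. The letters were not taken to pair embryos: the 38 same-letter pairs of neighbouring stages correlated by -0.274 to 0.245, with 13 over 0.1. Under the replicate block Cda5 was called from stage 5 to 6 (0.74) and missed the threshold from stage 10 to 12 (-0.71, adjusted p = 0.0508, edgeR), and obst-A missed it from stage 4 to 5. Sense counts, which hold the directional libraries only and so fewer embryos of stages 13 and 15, changed some results. On them Cda5 from stage 10 to 12 turned to 0.22. The Cda5 to Cda4 ratio from stage 13 to 15 turned to 0.51 and the knk to kkv ratio from stage 12 to 13 to 1.16. The serp to verm ratio (1.53) and the obst-A to Gasp ratio (1.37) from stage 12 to 13 were not called on them. In directional libraries alone, with 4 against 4 or 5 embryos, the serp to verm ratio changed by 1.53 and 0.72, the obst-A to Gasp ratio by 2.65 and -4.68, and the knk to kkv ratio from stage 13 to 15 by 0.75, none called at adjusted p of 0.0714 to 0.136 (exact permutation). In non-directional libraries alone, chosen after seeing the data, the last step gave 0.70 for serp to verm, -4.03 for obst-A to Gasp and 0.70 for knk to kkv (adjusted p = 0.0476 each, exact permutation), and 8 of 9 genes called higher, against 28.5% of all genes higher and 25.6% lower. The directional ratios were adjusted over 10 tests and the non-directional ones over those of the last step only. Calls of the library types therefore cannot be compared. With 4 against 4 embryos the smallest p that the permutation test can give is also larger than with 8 against 8. With 5 added to each count, from stage 12 to 13 the serp to verm ratio was 0.15 and the knk to kkv ratio -1.93. With each embryo left out, the obst-A to Gasp ratio from stage 12 to 13 ran from 2.03 to 2.72 and the mmy to kkv ratio from stage 13 to 15 from -0.27 to -0.17. Values at stage 12 and before rest on few reads for knk, serp, verm, Cda4, obst-A and Gasp. The cause of these differences was not tested.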
